A study of Mus musculus with 30 samples.

Results

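Expression of 10 genes that the hypoxia-inducible factors (HIF) are known to induce was followed through amygdala and blood: P4ha1, Vegfa, Slc2a1, Pdk1, Ldha, Bnip3, Egln1, Egln3, Ankrd37 and Adm. Members were taken by their exact symbol in the expression table, which found 10 of 10 genes among its 23303 entries. The mice were male C57BL/6J animals of 2 to 3 months, and each library was a pool of 2 mice. Home cage (HC) mice were handled and were not conditioned. FC mice were killed 2 h after auditory fear conditioning, in which a tone is paired with a shock, and Immo+FC mice had in addition been immobilized for 2 h, 1 week before the same conditioning. There were 6 HC, 6 FC and 4 Immo+FC amygdala libraries, and 4 HC, 5 FC and 5 Immo+FC blood libraries. All groups had a short isoflurane exposure and were decapitated. No immobilized group without conditioning is used here, so Immo+FC against HC holds both treatments together. The tissue punch can hold cells around the amygdala, and the blood was depleted of globin transcripts.

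In normal oxygen the HIF alpha subunits are hydroxylated by the prolyl hydroxylases of the Egln family, bound by the von Hippel-Lindau protein and degraded. When oxygen is low they are kept, pair with ARNT and bind a short core sequence in the promoters and enhancers of their target genes. The targets carry glucose into the cell (Slc2a1, the GLUT1 transporter of the blood-brain barrier), turn pyruvate into lactate (Ldha), hold pyruvate back from the mitochondrion (Pdk1), mark mitochondria for removal (Bnip3), call in vessels (Vegfa), relax them (Adm, the peptide adrenomedullin) and hydroxylate collagen in the endoplasmic reticulum (P4ha1). Egln1 and Egln3 are themselves both sensors and targets, and Ankrd37 encodes a small ankyrin repeat protein. Several of these genes also answer to signals other than oxygen.

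The 250 bases before the annotated start of P4ha1, Slc2a1 and Vegfa are shown because these genes held the clearest differences between amygdala groups described below. The sequences are RefSeq promoters on build GRCm38.p6, written 5′ to 3′ on the strand of the gene. Capitals mark the letters of the HIF core, searched as ACGTG and as GCGTG on both strands, so that CACGT and CACGC mark a match on the opposite strand. P4ha1 lies on chromosome 10 (+ strand, window chr10:59323046-59323295), Slc2a1 on chromosome 4 (+ strand, window chr4:119108495-119108744) and Vegfa on chromosome 17 (- strand, window chr17:46032378-46032627, at the outermost of its 2 annotated starts).
P4ha1: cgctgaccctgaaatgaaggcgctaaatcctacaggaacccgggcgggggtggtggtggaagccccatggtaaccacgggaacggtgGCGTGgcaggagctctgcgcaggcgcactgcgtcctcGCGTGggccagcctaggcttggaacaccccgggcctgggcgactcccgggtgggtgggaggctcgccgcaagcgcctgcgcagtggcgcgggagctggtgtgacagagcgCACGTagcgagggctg
Slc2a1: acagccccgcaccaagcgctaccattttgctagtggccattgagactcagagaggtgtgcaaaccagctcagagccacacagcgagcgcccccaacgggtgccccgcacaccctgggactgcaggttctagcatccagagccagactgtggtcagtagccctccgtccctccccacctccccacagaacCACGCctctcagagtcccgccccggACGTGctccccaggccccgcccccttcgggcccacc
Vegfa: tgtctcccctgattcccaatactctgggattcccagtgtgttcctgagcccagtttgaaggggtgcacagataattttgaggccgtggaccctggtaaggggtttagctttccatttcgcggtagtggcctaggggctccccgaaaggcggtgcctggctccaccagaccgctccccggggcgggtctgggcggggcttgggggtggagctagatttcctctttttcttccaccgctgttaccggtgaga

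The P4ha1 window held 1 ACGTG and 2 GCGTG, the Slc2a1 window 1 of each, and this Vegfa window neither. The window of the other Vegfa start, chr17:46025164-46025413, held 1 of each. That second window lies inside the gene, which spans chr17:46016993-46032369, so it is not upstream of the whole gene. It is counted with the others below. All 10 genes had a promoter sequence, 13 sequences in all because Ldha, Pdk1 and Vegfa have 2 each. ACGTG stood in 8 of these 13 windows and in 16.6% of the 32851 promoter windows of all genes, GCGTG in 9 of 13 and in 28.2%, and at least 1 of both in 11 of 13 and in 38.6%. The Ldha window at chr7:46845554-46845803 held 5 ACGTG matches, 4 of them as 2 copies of the palindrome CACGTG, which is read on both strands. These letters are a description of the windows and do not show that HIF was bound.

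Amygdala libraries had 23148078 to 31366290 sequences, of which 91.3 to 92.3% mapped to a single place, and blood libraries 9081977 to 25892322, of which 60.1 to 72.6% did. Neuron markers bore out the amygdala libraries as brain tissue, with sums of 2420 to 2928 FPKM (fragments per kilobase of transcript, scaled to the mapped fragments of the library) in each library. The B cell markers there summed to at most 0.536 FPKM. No marker of a brain region was examined, so the amygdala itself rests on the label. The blood label was borne out by neutrophil markers (4482 to 44009 FPKM) and B cell markers (1182 to 2683 FPKM), whereas Alas2, an erythroid marker, was listed at 0 in every blood library. Some libraries stood apart. Choroid plexus markers summed to between 4.55 and 1065 FPKM among amygdala libraries, and all 4 Immo+FC libraries were at 116 or above. A score over 317 genes with transcripts longer than 10000 bases (mean centred log2 level) split the amygdala libraries. It was low, at -0.32 to -0.09, in HC libraries 1 and 2, in all 6 FC libraries and in Immo+FC library 1. It was high, at 0.21 to 0.26, in HC libraries 3 to 6 and Immo+FC libraries 2 to 4. The score thus moved with FC against HC and also with Immo+FC against FC. Blood HC library 3 had an erythroid sum of 55389 FPKM against 6692 to 19581 in the other blood libraries. Blood HC library 4 was the shallowest, with 9081977 sequences against 18552641 or more in each other blood library. Blood Immo+FC libraries 1 and 2 had the highest neutrophil sums, 33794 and 44009 FPKM. From the RNA of such bulk samples alone, fewer cells of a type and less RNA per cell cannot be told apart. For blood, the study also counted cells. It reported a larger neutrophil share and a smaller lymphocyte share in Immo+FC than in FC and HC, and no difference between HC and FC.

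In HC amygdala, Ldha was by far the most abundant of the 10 transcripts per length at 204 ± 11.9 FPKM (SD, n = 6). Bnip3 (29.5 ± 1.70), Slc2a1 (22.7 ± 2.27), Vegfa (20.5 ± 0.448), Egln1 (15.1 ± 0.735), Pdk1 (12.7 ± 1.22) and P4ha1 (8.04 ± 1.01) followed. Egln3 (3.21 ± 0.377) and Ankrd37 (3.04 ± 0.656) were low, and Adm was near the limit of use at 0.470 ± 0.188. Bnip3 and Slc2a1, Slc2a1 and Vegfa, and Egln3 and Ankrd37 are neighbours in this order whose libraries overlapped. In HC blood the order began again with Ldha (171 ± 26.9, n = 4), followed by Slc2a1 (14.3 ± 1.93), Pdk1 (13.8 ± 3.31), Egln1 (8.52 to 11.3), Ankrd37 (8.87 ± 2.70), Bnip3 (6.68 ± 2.02) and P4ha1 (4.16 ± 0.694). Egln3 (1.81 ± 0.736), Vegfa (1.42 ± 0.906) and Adm (0.261 ± 0.298) were lowest. From Slc2a1 down to P4ha1 each neighbour overlapped the next, as did Egln3 and Vegfa. Vegfa was 14.4 times and Bnip3 4.42 times as high in HC amygdala as in HC blood, and Ankrd37 2.92 times as high in blood, with no overlap between libraries. P4ha1, Slc2a1 and Egln1 were also higher in every HC amygdala library, whereas Pdk1, Ldha, Egln3 and Adm overlapped. The tissues were prepared and normalized apart, so these ratios carry no test.

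The comparisons between groups are given as a description. The 10 genes were chosen by earlier results of these same expression values, and which of the differences below entered that choice was not recorded, so the differences support nothing beyond themselves. The adjusted p beside a gene comes from limma over all tested genes and places the gene in that table, and it measures only the spread between pooled libraries. In amygdala 9 of the 10 genes reached the minimum mean of 0.5 FPKM, and Adm did not. P4ha1 was the only one of the 9 past the adjusted p threshold of 0.05, higher in Immo+FC than in HC, where 0.200% of the 13508 tested genes were past it and 0.118% were higher. For FC against HC (0.0148% of all genes) and Immo+FC against FC (0.0222%) 0 of 9 were past it in limma. At an unadjusted p under 0.05 there were 2 higher and 1 lower for FC against HC, beside 6.59% higher and 6.48% lower of all genes. There were 0 higher and 1 lower for Immo+FC against FC (3.94% and 6.49%), and 2 higher and 2 lower for Immo+FC against HC (5.34% and 7.73%). Groups did not overlap for 0 members in FC against HC (1.39% of all genes), for 1 lower in Immo+FC against FC (1.38%), and for 1 higher (1.13%) and 1 lower (1.44%) in Immo+FC against HC. The genes lay on both sides of 0: the median log2 fold change of the 9 was 0.05, -0.00 and 0.01 in the 3 comparisons, and that of all tested genes 0.01, -0.02 and -0.01.

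P4ha1 encodes the catalytic subunit of the prolyl 4-hydroxylase that hydroxylates procollagen in the endoplasmic reticulum. Its amygdala levels in HC ran from 6.95 over a median of 7.86 to 9.32 FPKM, and in FC from 8.44 over 10.9 to 11.1. The 4 Immo+FC libraries read 13.6, 12.8, 10.9 and 9.97 FPKM. Every Immo+FC library was thus above every HC library, the FC mean lay between theirs, and FC libraries 5 and 6 fell within the HC range. The log2 fold change was 0.55 for Immo+FC against HC (SE 0.11, adjusted p = 0.0494), 0.34 for FC against HC (SE 0.10, adjusted p = 0.131) and 0.21 for Immo+FC against FC (SE 0.11, adjusted p = 0.517). These 3 comparisons share libraries. P4ha1 stood at rank 27 among the 27 genes past the threshold for Immo+FC against HC. Without Immo+FC libraries 1 and 2 the log2 fold change was 0.38 and the adjusted p 0.642, and the call was also lost in 12 of the 16 fits that left out 1 library (adjusted p 0.0199 to 0.190 over the 16), so that it held only without HC library 3 or 4, FC library 5 or Immo+FC library 4. With the choroid plexus score in the fit the value was 0.57 (adjusted p = 0.0481), with the endothelial score 0.53 (adjusted p = 0.0879), and with the long transcript score 0.55 (adjusted p = 0.0444). With the long transcript score the FC against HC value of P4ha1 was 0.29. Some blood cell marker scores also moved with P4ha1. Its correlation over the 16 libraries was 0.60 with the monocyte score, 0.53 with the platelet score and 0.36 with the neutrophil score. These scores rest on 4, 2 and 3 tested genes, and Csf1r stands in both the monocyte and the microglia list. The correlation was 0.15 with the T cell score, -0.14 with the erythroid score and 0.36 with the microglia score. The monocyte and neutrophil scores were highest in Immo+FC libraries 1 and 2, the highest P4ha1 libraries. Monocyte scores were 0.24 and 0.28 there and -0.37 to 0.13 in the other 14, and neutrophil sums 5.49 and 5.09 FPKM against 2.00 to 4.07. Monocyte sums did not stand apart, at 45.8 to 59.0 FPKM in HC, 48.0 to 60.1 in FC and 51.95 to 56.5 in Immo+FC. Platelet sums were 1.45 to 2.12, 1.52 to 2.13 and 1.59 to 2.34 FPKM. A marker is called at 0 here where every library of a group listed it at 0. Of the neutrophil markers Retnlg was at 0 in FC, and no other marker of the neutrophil, monocyte and platelet lists was at 0. Their part in the P4ha1 difference was not tested.

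**Figure D1:**
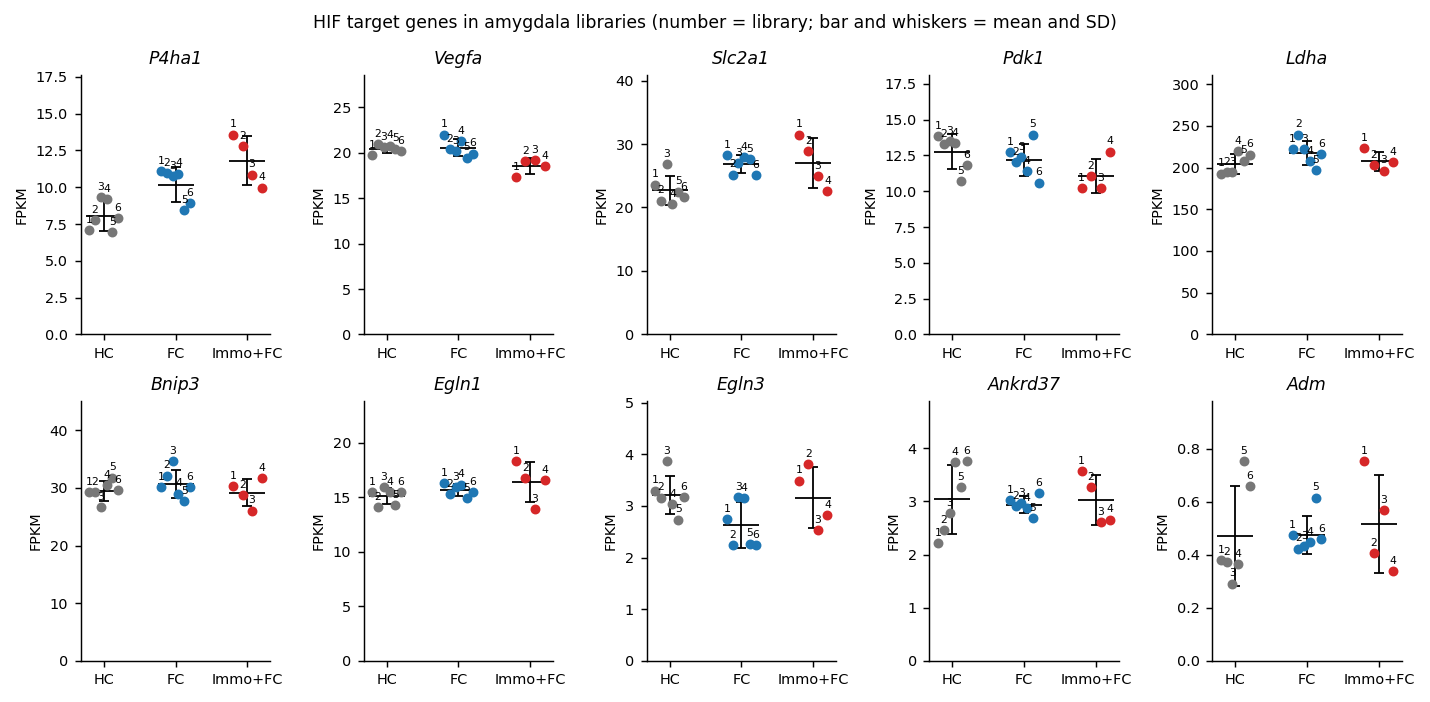
Levels of the 10 genes in each amygdala library, in FPKM from 0, with HC, FC and Immo+FC along the horizontal axis. Points are libraries with their numbers, and bars with whiskers are the mean and SD. P4ha1 has 4 Immo+FC libraries between 9.97 and 13.6 FPKM above all HC libraries, and Vegfa has all 4 Immo+FC libraries below both other groups.

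The genes whose amygdala pattern was most like that of P4ha1 were Manf (r = 0.98), Sdf2l1 (r = 0.98) and Xbp1 (r = 0.97), by Pearson correlation of log2 values over 16 libraries among 12208 genes, given without a test because libraries of a group share its treatment. Manf and Sdf2l1 encode proteins of the endoplasmic reticulum and Xbp1 a transcription factor of the unfolded protein response. Sdf2l1 read 6.39 ± 1.53 FPKM in HC, 9.58 ± 1.77 in FC and 12.3 ± 3.35 for Immo+FC. Xbp1 read 25.4 ± 2.945, 32.4 ± 3.81 and 37.35 ± 5.09 FPKM. Among the other HIF targets, the correlation of P4ha1 was 0.72 with Slc2a1, 0.65 with Egln1, 0.42 with Ldha and 0.27 with Ankrd37. It was 0.17 with Egln3, 0.03 with Bnip3, -0.35 with Vegfa and -0.41 with Pdk1. These values hold the differences between groups. After the group means were taken out, the correlation was 0.50 with Slc2a1, 0.57 with Egln1, 0.48 with Ldha and 0.44 with Ankrd37. Within groups it was 0.66 with Egln3, 0.04 with Bnip3, 0.29 with Vegfa and -0.04 with Pdk1. Manf, Sdf2l1 and Xbp1 were picked as the highest of 12208 genes over all libraries. That the values of the HIF targets over all libraries are lower was set by that choice. P4ha2, the sister catalytic subunit, read 5.55 ± 0.653 FPKM in HC, 6.78 ± 0.361 in FC and 7.20 ± 0.802 for Immo+FC (Immo+FC against HC: log2 fold change 0.37, adjusted p = 0.0827). P4hb, the protein disulfide isomerase that completes the enzyme, read 32.4 ± 1.10, 35.4 ± 1.59 and 35.2 ± 0.446 FPKM, with neither FC nor Immo+FC overlapping HC (Immo+FC against HC: 0.12, adjusted p = 0.216).

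**Figure D2:**
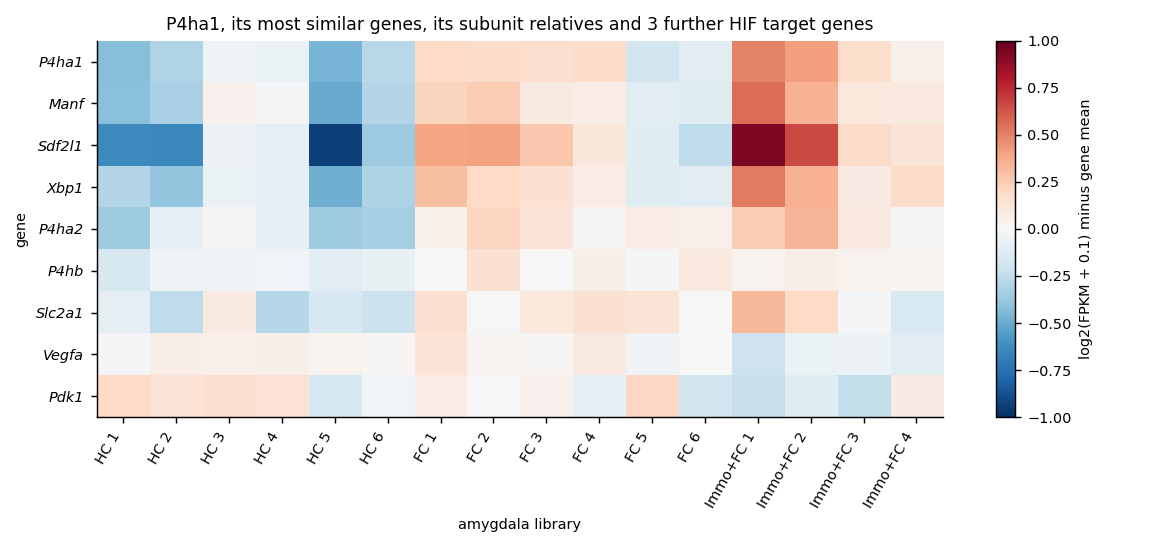
Amygdala libraries (columns) against P4ha1, its 3 most similar genes, its subunit relatives and 3 further HIF targets (rows), as log2(FPKM + 0.1) minus the mean of the gene, from blue (below) to red (above). Manf, Sdf2l1 and Xbp1, picked as the genes most correlated with P4ha1, follow it library by library (r of 0.98, 0.98 and 0.97). Vegfa and Pdk1 do not.

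Slc2a1 ran from 20.6 over a median of 22.1 to 26.8 FPKM in HC amygdala and from 25.1 over 27.3 to 28.3 in FC. Immo+FC libraries read 31.5, 28.9, 24.96 and 22.6 FPKM. FC overlapped HC only through HC library 3, while Immo+FC spread over both groups. The log2 fold change was 0.24 for FC against HC (SE 0.08, adjusted p = 0.155), 0.24 for Immo+FC against HC (SE 0.08, adjusted p = 0.230) and -0.00 for Immo+FC against FC (SE 0.08, adjusted p = 0.999). Without Immo+FC libraries 1 and 2 the Immo+FC values were 0.07 against HC and -0.17 against FC. Slc2a1 is carried by brain endothelium, whose 11 markers summed to 86.8 to 98.1 FPKM in HC, 91.3 to 109 in FC and 94.4 to 104 in Immo+FC, with none at 0. With the endothelial score in the fit the FC against HC value of Slc2a1 was 0.23, with the choroid plexus score 0.24, and with the long transcript score 0.17.

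Vegfa, which directs vessel growth and permeability, was the steadiest member in HC (19.7 to 20.9 FPKM, median 20.6). FC libraries ran from 19.5 over 20.3 to 22.01 FPKM, and the 4 Immo+FC libraries read 17.3, 19.1, 19.2 and 18.5. Every Immo+FC library was below every HC and every FC library, by a small amount. The log2 fold change was -0.15 against FC (SE 0.04, adjusted p = 0.209) and -0.14 against HC (SE 0.04, adjusted p = 0.159), and 0.00 for FC against HC. Without Immo+FC libraries 1 and 2 both values were -0.12, and with the choroid plexus score in the fit they were -0.14 and -0.13. Neuron markers, which moved with Vegfa over the libraries (r = 0.65, n = 16), summed to 2420 to 2849 FPKM in Immo+FC, 2668 to 2928 in FC and 2622 to 2887 in HC, with none of 10 at 0. Their part in the difference was not tested.

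Of the metabolic members, Pdk1, the kinase that shuts pyruvate dehydrogenase, read 12.7 ± 1.22 FPKM in HC, 12.2 (10.6 to 13.96) in FC and 11.1 ± 1.20 for Immo+FC. Its log2 fold change for Immo+FC against HC was -0.20 (SE 0.09, adjusted p = 0.320), and the groups overlapped. Ldha, lactate dehydrogenase A, read 204 ± 11.9, 217 ± 14.4 and 207 ± 11.5 FPKM. Bnip3, the mitophagy receptor, read 29.5 ± 1.70, 30.6 ± 2.46 and 29.2 ± 2.40 FPKM. The log2 fold changes of Ldha and Bnip3 lay between -0.07 and 0.09 in the 3 comparisons, with adjusted p of 0.460 or more. Their 95% intervals reached no lower than -0.21 and no higher than 0.20.

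Among the oxygen sensors, Egln3 read 3.21 ± 0.377 FPKM in HC, 2.63 ± 0.447 in FC and 3.16 ± 0.588 for Immo+FC. FC libraries 2, 5 and 6 at 2.23 to 2.27 FPKM were below all HC libraries, and the other 3 were within the HC range. The log2 fold change for FC against HC was -0.28 (SE 0.12, adjusted p = 0.293), and -0.40 with the long transcript score in the fit. Immo+FC libraries 1 and 2 were high at 3.49 and 3.80 FPKM, and without them Immo+FC against HC went from -0.03 to -0.25. Egln1, the main prolyl hydroxylase acting on HIF, read 15.1 ± 0.735, 15.7 ± 0.543 and 16.4 ± 1.83 FPKM, with log2 fold changes from 0.05 to 0.11. Ankrd37 read 3.04 ± 0.656, 2.94 ± 0.155 and 3.03 ± 0.472 FPKM. Its HC libraries 1 and 2 were at 2.22 and 2.46 and libraries 4 to 6 at 3.26 to 3.77 FPKM, a spread wider than any difference between the groups. Without HC libraries 3 to 6 the Ankrd37 value for Immo+FC against HC went from 0.01 to 0.35. Adm stayed between 0.290 and 0.754 FPKM in all 16 libraries, and its group means were 0.470, 0.475 and 0.517 FPKM.

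**Figure D3:**
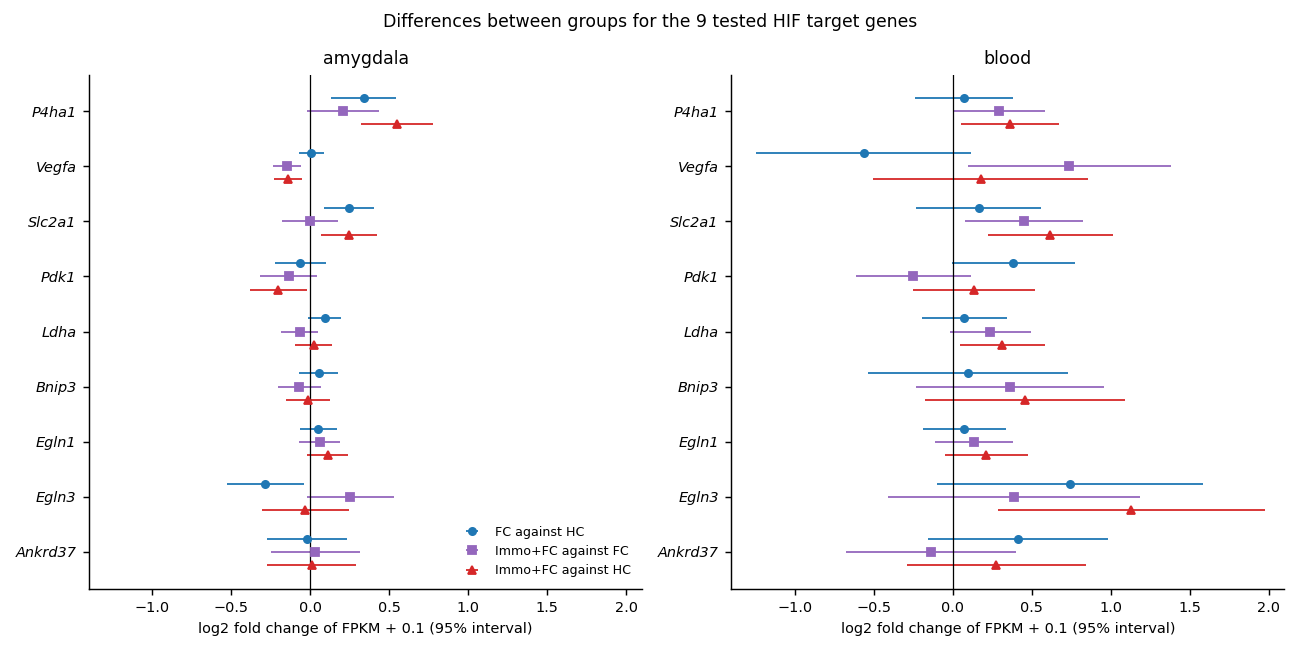
Log2 fold changes of FPKM + 0.1 with 95% intervals for the 9 tested genes in amygdala (left) and blood (right), for FC against HC (circles), Immo+FC against FC (squares) and Immo+FC against HC (triangles). In amygdala P4ha1 lies farthest from 0 at 0.55, and in blood the intervals are wider and all 9 triangles lie above 0.

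The wider pathway was read from 93 genes in 6 lists, 85 of which were tested in amygdala. In limma 0 of 85 passed the threshold in each of the 3 comparisons. At an unadjusted p under 0.05 there were 16 higher and 5 lower for FC against HC, 1 and 9 for Immo+FC against FC, and 11 and 5 for Immo+FC against HC, beside the shares of all genes given above. The genes named from each list are the 2 with the smallest p for Immo+FC against HC, whether or not that p was under 0.05. The median log2 fold change of the 85 in these comparisons was 0.04, -0.03 and 0.02, beside the 0.01, -0.02 and -0.01 of all genes. Of 16 HIF subunits and regulators, Arnt2, the neuronal partner of the alpha subunits, read 44.6 ± 5.75 FPKM in Immo+FC and 49.4 ± 0.685 in HC (log2 fold change -0.16, adjusted p = 0.310), and Hif1a itself 12.7 ± 1.11 against 14.1 ± 1.49 (-0.15, adjusted p = 0.442). Of 20 glycolytic genes, Pfkfb3, which makes the activator of phosphofructokinase, read 4.21 ± 0.452 FPKM in HC, 5.44 ± 0.708 in FC and 5.43 ± 0.383 for Immo+FC. Both conditioned groups were above all HC libraries, beside the shares of all genes without overlap given above, with adjusted p of 0.106 and 0.1185. FC library 5 was barely so, at 4.656 against 4.645 FPKM in HC library 4. Slc16a1, the monocarboxylate transporter of brain capillaries, read 4.93 ± 0.666 FPKM in HC and 3.95 ± 0.332 in Immo+FC (-0.30, adjusted p = 0.193).

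The 11 mitochondrial genes had log2 fold changes of -0.09 to 0.08 for Immo+FC against HC, none at an unadjusted p under 0.05. For FC against HC 10 of the 11 were above 0 and 2 had an unadjusted p under 0.05, Pdhb, a pyruvate dehydrogenase subunit, at 0.12 and the kinase Pdk2 at 0.10. For Immo+FC against FC there were 2 lower ones, Pdk2 at -0.15 and Pdha1 at -0.12. Pdhb and Pdk2 were named after their values were seen. Pdha1, a subunit of pyruvate dehydrogenase, had the smallest p for Immo+FC against HC and read 70.9 ± 5.15 against 75.2 ± 3.74 FPKM, followed by the cytochrome oxidase subunit Cox4i1 at 503 ± 51.5 against 481 ± 15.1. Of 9 tested vascular genes, Kdr, the Vegfa receptor, read 1.92 ± 0.319 FPKM in Immo+FC and 2.25 ± 0.138 in HC (-0.23, adjusted p = 0.296). Ramp2, the partner of the adrenomedullin receptor, read 13.1 ± 0.765 against 11.7 ± 1.04 (0.16, adjusted p = 0.358). Of 24 other hypoxia-induced genes, 6 had an unadjusted p under 0.05 with a higher and 1 with a lower level. Jmjd6, a lysine hydroxylase, read 10.2 ± 1.07 against 8.56 ± 0.384 FPKM (0.24, adjusted p = 0.101), and Tfrc, the transferrin receptor, 17.4 ± 2.83 against 21.7 ± 2.37 (-0.32, adjusted p = 0.145). The 5 tested collagen-modifying genes had the highest median of the lists at 0.15, with P4ha2 at 0.37, the lysyl hydroxylase Plod1 at 0.34, P4ha3 at 0.15, P4hb at 0.12 and Plod2, another lysyl hydroxylase, at -0.14. Plod1, P4ha3 and Plod2 were named to complete the list of 5 after their values were seen.

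In blood 9 of the 10 genes were tested and 0 passed the threshold in limma for FC against HC (0.0343% of 11656 tested genes did), for Immo+FC against FC (0.00%) and for Immo+FC against HC (0.0686%). At an unadjusted p under 0.05 there were 0, 3 and 4, each of them higher, beside 4.34%, 5.78% and 7.14% of all genes that were higher. The 9 genes had log2 fold changes above 0 throughout for Immo+FC against HC, from 0.14 for Pdk1 to 1.13 for Egln3 with a median of 0.31, where the median of all genes was -0.02. For 0 members did the groups not overlap in any of the 3 comparisons, while they did not for 3.88%, 1.58% and 4.61% of all genes. A high pair of Immo+FC libraries, 1 and 2, entered these values for some of the genes. Without that pair the Immo+FC against HC values of Slc2a1, Egln3, Ldha, P4ha1 and Bnip3 were 0.30, 0.60, 0.18, 0.26 and 0.08, and those of Egln1 and Vegfa 0.13 and 0.01, each lower than with it. Pdk1 and Ankrd37 did not follow the pair, and went from 0.14 to 0.35 and from 0.28 to 0.34.

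Slc2a1 showed the pair most clearly. HC libraries read 15.0, 16.6, 13.4 and 12.1 FPKM and FC libraries 17.0, 16.4, 14.3, 16.8 and 15.1. Immo+FC libraries read 28.8, 31.9, 17.5, 19.3 and 15.8 FPKM, so that libraries 1 and 2 were well above all others and library 5 was within both other groups. The log2 fold change was 0.62 against HC (SE 0.18, adjusted p = 0.123) and 0.45 against FC (SE 0.17, adjusted p = 0.5225). The genes most like Slc2a1 over the 14 blood libraries were Znrf1 (r = 0.95), Sdf2l1 (r = 0.94) and Ier5 (r = 0.93) among 10495 genes. Sdf2l1, named above beside P4ha1, read 14.2 ± 1.19 FPKM in HC, 18.8 ± 1.24 in FC and 29.2 ± 9.10 for Immo+FC blood.

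Egln3 read 1.75, 1.74, 2.77 and 0.982 FPKM in HC, 4.39, 4.67, 2.62, 1.78 and 2.19 in FC, and 7.65, 5.95, 3.14, 2.11 and 2.78 for Immo+FC. FC libraries 1 and 2 and Immo+FC libraries 1, 2, 3 and 5 were above all HC libraries, library 5 barely so at 2.777 against 2.775 FPKM, and the groups overlapped. Its log2 fold change was 1.13 for Immo+FC against HC (SE 0.39, adjusted p = 0.181) and 0.74 for FC against HC (SE 0.39, adjusted p = 0.534). Ldha read 155, 143, 201 and 186 FPKM in HC, 175, 187, 170, 173 and 190 in FC, and 243, 240, 175, 216 and 190 for Immo+FC, a log2 fold change against HC of 0.31 (SE 0.13, adjusted p = 0.248). Bnip3 read 13.8 and 12.8 FPKM in Immo+FC libraries 1 and 2 and 4.49 to 9.59 in all other blood libraries. Its log2 fold change against HC was 0.46 (SE 0.30, adjusted p = 0.503).

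**Figure D4:**
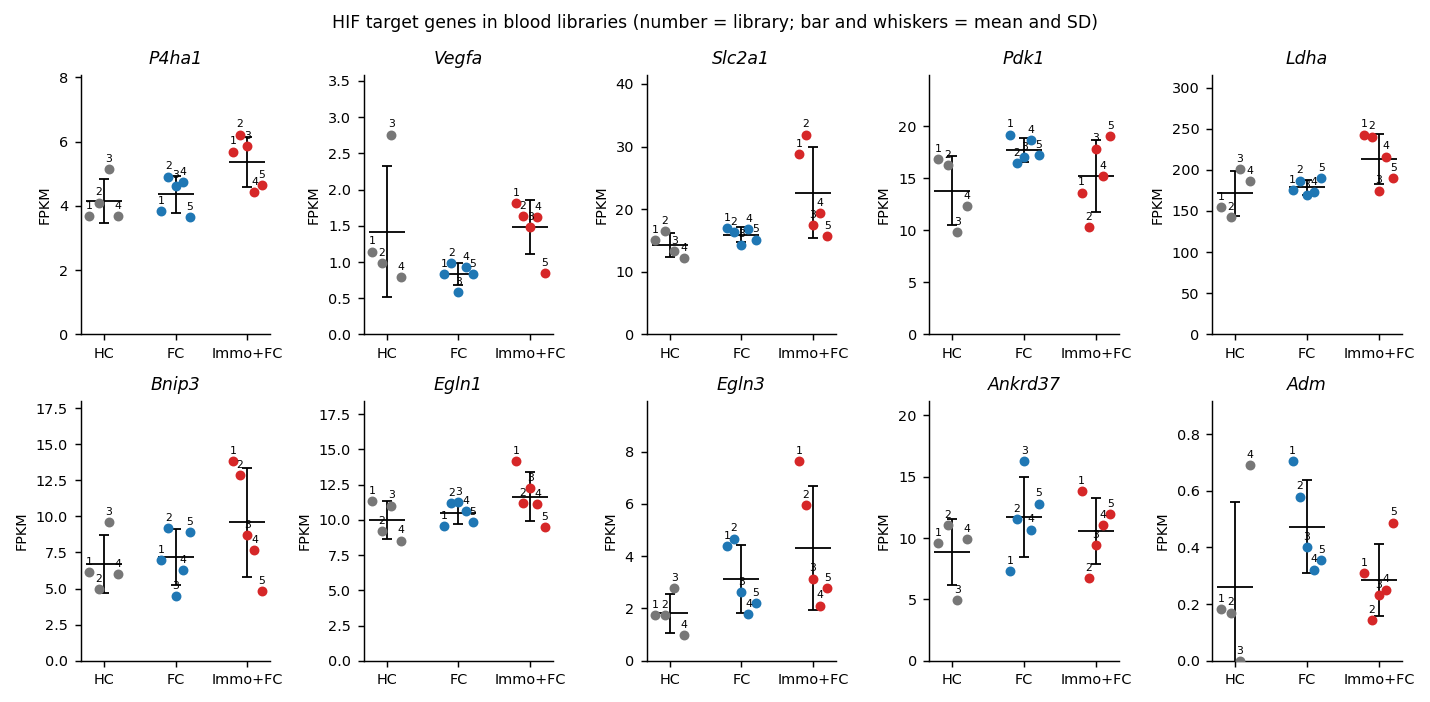
Levels of the 10 genes in each blood library, in FPKM from 0, with HC, FC and Immo+FC along the horizontal axis. Points are libraries with their numbers, and bars with whiskers are the mean and SD. Immo+FC libraries 1 and 2 are the highest for Slc2a1 (28.8 and 31.9 FPKM), Egln3, Ldha and Bnip3, and HC library 3 is highest for Vegfa.

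White cell markers moved with these genes. Immo+FC libraries 1 and 2 had monocyte sums of 11703 and 15134 FPKM, HC library 3 had 11784, Immo+FC library 4 had 10420, and all others were between 2822 and 7892. Over the 14 blood libraries the monocyte score had a correlation of 0.80 with Vegfa, 0.78 with Ldha, 0.77 with Bnip3, 0.62 with Slc2a1 and -0.77 with Pdk1. The neutrophil sums had medians of 5352 FPKM in HC, 12096 in FC and 18348 for Immo+FC, with none of the 9 markers at 0. With the neutrophil score in the fit the Immo+FC against HC values were 0.53 for Slc2a1, 0.84 for Egln3, 0.18 for Ldha and 0.06 for Bnip3. The part of the monocytes was not tested.

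**Figure D5:**
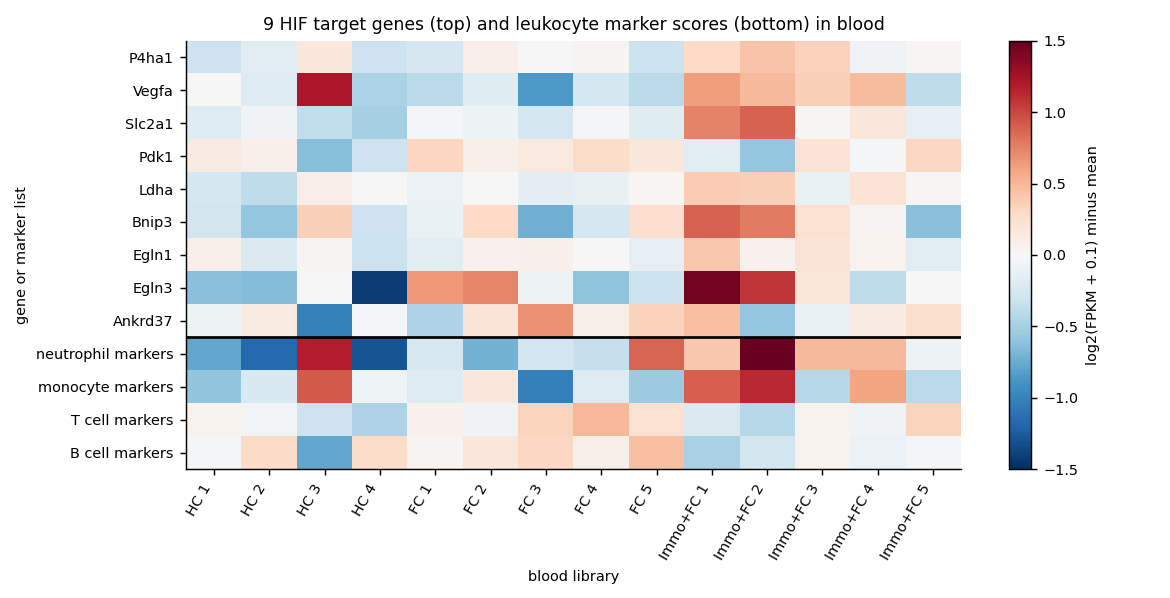
Blood libraries (columns) against the 9 tested genes (upper rows) and 4 leukocyte marker scores (lower rows), as log2(FPKM + 0.1) minus the mean over libraries, from blue (below) to red (above). Immo+FC libraries 1 and 2 and HC library 3 have high monocyte scores, and Vegfa and Bnip3 are high and Pdk1 low in the same libraries.

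P4ha1 in blood read 3.69, 4.10, 5.16 and 3.68 FPKM in HC, 3.84, 4.91, 4.63, 4.75 and 3.65 in FC, and 5.69, 6.22, 5.85, 4.42 and 4.65 for Immo+FC. The first 3 Immo+FC libraries were above all others, and the last 2 were within the ranges of HC and FC. Its log2 fold change was 0.36 against HC (SE 0.15, adjusted p = 0.245) and 0.29 against FC (SE 0.14, adjusted p = 0.524). Vegfa read 1.14, 0.981, 2.76 and 0.788 FPKM in HC, 0.582 to 0.987 in FC, and 1.81, 1.63, 1.48, 1.62 and 0.850 for Immo+FC. Immo+FC libraries 1 to 4 were above all FC libraries, with a log2 fold change of 0.74 against FC (SE 0.30, adjusted p = 0.5225). HC library 3, with the high erythroid sum, was the highest Vegfa library, and without it the value for Immo+FC against HC went from 0.18 to 0.54. Without Immo+FC libraries 1 and 2 that value of Vegfa was 0.01, and with the neutrophil score in the fit -0.30. For FC against HC it was -0.56 (SE 0.32, adjusted p = 0.578).

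Pdk1 and Ankrd37 were the members with negative values for Immo+FC against FC. Pdk1 read 17.7 ± 1.18 FPKM in FC and 15.2 ± 3.49 for Immo+FC (-0.25, SE 0.17, adjusted p = 0.645), and 13.8 ± 3.31 in HC (FC against HC: 0.39, SE 0.18, adjusted p = 0.490). Its lowest libraries were HC library 3 at 9.87 and Immo+FC library 2 at 10.3 FPKM, and it moved with the T cell score over the libraries (r = 0.84). T cell markers summed to 337 to 465 FPKM in HC, 454 to 627 in FC and 353 to 580 in Immo+FC, with none of 7 at 0, and their part was not tested. Ankrd37 read 8.87 ± 2.70, 11.7 ± 3.27 and 10.6 ± 2.68 FPKM in HC, FC and Immo+FC, and Egln1 8.52 to 11.3, 9.57 to 11.2 and 9.47 to 14.2, with adjusted p of 0.444 or more. Adm was listed at 0 in HC library 3 and was at most 0.706 FPKM in any blood library.

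The labels give 13 of the running sample numbers to both an amygdala and a blood library of the same group, 4 of HC, 5 of FC and 4 of Immo+FC, without saying outright that both came from the same mice. The Immo+FC libraries 1 and 2 that stood high in blood carry the numbers 1 and 2, as do amygdala Immo+FC libraries 1 and 2. Slc2a1 took ranks 1 and 2 of 16 in amygdala and ranks 2 and 1 of 14 in blood in these libraries. P4ha1 took ranks 1 and 2 in amygdala and 3 and 1 in blood. Egln3 took ranks 3 and 2 in amygdala and 1 and 2 in blood, and Sdf2l1 ranks 1 and 2 in both tissues. Vegfa did not follow, with ranks 16 and 14 in amygdala and 2 and 3 in blood, and neither did Bnip3, with 6 and 13 against 1 and 2. Ldha had 2 and 11 against 1 and 2, Egln1 1 and 2 against 1 and 6, and Ankrd37 3 and 4 against 2 and 13. Pdk1 had 15 and 12 against 11 and 13, and Adm 1 and 11 against 8 and 13. These libraries were singled out for high blood values, so their high blood ranks follow from that choice. The amygdala libraries of the pair were also named above for their high P4ha1 levels. Sdf2l1 was named for its likeness to P4ha1 in amygdala and to Slc2a1 in blood. The amygdala ranks are therefore not independent of the choice either.

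Of the 93 pathway genes 67 were tested in blood, and 0 passed the threshold in limma in the 3 comparisons, with 8, 7 and 14 at an unadjusted p under 0.05 beside 10.2%, 9.53% and 15.3% of all genes. For Immo+FC against HC the median log2 fold change of the 67 was -0.04, below the 0.31 of the 9 members, with 30 above and 37 below 0. The nearest to the threshold was Epas1, the HIF-2 alpha subunit, at 1.18 ± 0.162 FPKM in HC, 0.895 ± 0.0852 in FC and 0.512 ± 0.101 for Immo+FC, where all Immo+FC libraries were below all others (against HC: -1.07, adjusted p = 0.05675). Hif1a read 10.1 ± 1.17, 11.1 ± 1.83 and 16.6 ± 4.88 FPKM (against HC: 0.68, adjusted p = 0.105). Aldoc, a brain aldolase, read 6.735 ± 2.45 FPKM in HC, 2.95 ± 1.02 in FC and 2.68 ± 0.550 for Immo+FC (against HC: -1.25, adjusted p = 0.0654). Neuron markers were also higher in HC blood, with sums of 21.9 to 64.1 FPKM against 10.3 to 24.9 in FC and 9.55 to 23.9 in Immo+FC and none of 10 at 0, and their part in the Aldoc difference was not tested. Epas1, Hif1a and Aldoc were named here after their values were seen.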

How the data were processed

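RNA was sequenced from pools of 2 mice. The authors aligned reads with STAR 2.3 and computed FPKM with Cufflinks and Cuffdiff 2.1.1 (build mm10), and deposited 1 table of FPKM and 1 of mapped read counts per library, the latter used only for depth. FPKM values are not counts, so log2(FPKM + 0.1) was tested with limma 3.58.1 (R 4.3.3, mean-variance trend) after dropping genes whose mean in a tissue was under 0.5 FPKM, 1 fit of 3 groups per tissue, with Benjamini-Hochberg adjustment over all tested genes and a threshold of 0.05. Fold changes on this scale understate those of low genes. Scripts were tested on simulated data. Entries with several symbols (272) were not split, so Nrp1, among the 93 pathway genes listed, was not found under its own symbol and was not tested. Marker scores are mean centred log2 values. The members and lists were chosen with earlier results of these data known. All 10 members were named, the 2 pathway genes per list with the smallest p for amygdala Immo+FC against HC, the 3 genes most correlated with a member, and others where stated. Alternatives were pseudocount, minimum, scaling, array weights, covariates, a replicate block and libraries left out. Without counts per gene, the depth behind an FPKM value is unknown.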

Additional observations from a re-analysis of the deposited data

Results flagged for a closer look

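Of 60 sets of libraries (a member in a group), 1 held a library far from the rest by Dixon's criterion, where chance gives about 1 in 20. Adm in amygdala FC library 5 was at 0.615 FPKM against 0.423 to 0.472 in the other 5, a gap of 0.742 of the range against a critical value of 0.625. Adm was under the minimum for testing in both tissues.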

How the results depend on the processing

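In amygdala the count of members past the threshold for Immo+FC against HC was 1 (P4ha1, adjusted p = 0.0494) and became 0 with a pseudocount of 1 FPKM, with no minimum, with only the groups compared, with array weights, with the replicate block, with the endothelial score as covariate, without HC libraries 1 and 2 and without Immo+FC libraries 1 and 2. It ran from 0 to 1 over the 16 fits without 1 library. P4ha1 was called in 11 of 31 alternatives, its log2 fold change ran from 0.38 to 0.65, always above 0, and its adjusted p from 0.0199 to 0.642. For FC against HC the count of members became 1 with array weights (Slc2a1, adjusted p = 0.0453). Pathway genes also passed in that fit, as given below. The share of all genes that passed in it is not given here, so nothing is read from this call about Slc2a1. In blood the count of members was 0 in every alternative.

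The count of amygdala pathway genes past the threshold, 0 at first, became for FC against HC 7 with array weights (5 up and 2 down), 1 under the replicate block, 2 without HC libraries 1 and 2 and 1 with the endothelial score. For Immo+FC against FC it became 1 with only the groups compared, with array weights, without HC libraries 1 and 2, without HC libraries 3 to 6 and with the choroid plexus score. For Immo+FC against HC it became 1 without HC libraries 3 to 6 and 1 with the choroid plexus score. It ran from 0 to 1, 0 to 1 and 0 to 3 without 1 library, the 3 without Immo+FC replicate 4. In blood it became 1 (lower) for FC against HC with the neutrophil score, and for Immo+FC against HC 2 with a pseudocount of 1 FPKM, 2 with no minimum, 1 with quantile normalization, 3 with array weights and 2 with the neutrophil score, and ran from 0 to 2 without 1 library, the 2 without HC replicate 3. The cause was not tested.

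Same-numbered libraries of the groups compared deviated together (r above 0.1) in some pairs. These were 0 of 6, 1 of 4 and 2 of 4 amygdala pairs and 0 of 4, 2 of 5 and 0 of 4 blood pairs. The highest r was 0.31, for amygdala Immo+FC against HC. Whether same-numbered libraries shared an effect was not tested. With the replicate block all genes past the threshold went from 2, 3 and 27 to 160, 62 and 0 in amygdala and from 4, 0 and 8 to 2, 0 and 8 in blood. Of 54 member log2 fold changes under all alternatives, 1529 of 1539 values moved by less than 1 SD of the libraries within groups, and 68 changed sign, none of them of P4ha1 for Immo+FC against HC, the only value past the threshold. The 10 that moved more were of Slc2a1, Egln1, Egln3 and Ankrd37. The choroid plexus score and the blood fit without Immo+FC libraries 1 and 2 were chosen after seeing the data.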

Other observations

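The nearest genes of the other members differed between the tissues. In amygdala (16 libraries, 12208 genes) Vegfa was most like Ikzf4, Sema4f and Slc44a2 (r = 0.87, 0.84 and 0.83), Slc2a1 like Dpf1, Id1 and Ccnl2 (0.89, 0.88 and 0.87), and Pdk1 like Ptpn14, Dusp18 and Arsj (0.95, 0.92 and 0.90). Ldha was most like Arhgdig, Doc2a and Coq10b (0.89, 0.88 and 0.87), Bnip3 like Atp6v1h, Gars and Ilf2 (0.88, 0.87 and 0.86), and Egln1 like Rasl10a, Dusp14 and Cckbr (0.89, 0.88 and 0.86). Egln3 was most like Ddit4l, Sla and Plk5 (0.87, 0.86 and 0.83), and Ankrd37 like Tmsb10, Arl4d and Stk32c (0.86, 0.83 and 0.82). None of the 10 members was among the 3 nearest genes of another, and 3 genes out of 12208 would seldom include one in any case. Correlations between members in amygdala ran from -0.42 (Vegfa and Egln1) to 0.72 (P4ha1 and Slc2a1).

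In blood (14 libraries, 10495 genes) P4ha1 was most like Rin3, Cmip and Ppp1r9b (r = 0.89 for each), Vegfa like Ulk1, Wsb2 and Slc31a2 (0.94, 0.91 and 0.91), and Pdk1 like Suz12, Ablim1 and Mtrr (0.93, 0.93 and 0.92). Ldha was most like Vti1b, 1600010M07Rik and Trem3 (0.97, 0.95 and 0.94), Bnip3 like Nt5dc2, Rhou and Timm10b (0.95, 0.93 and 0.93), and Egln1 like Tbc1d2, Etf1 and Stx18 (0.82, 0.81 and 0.79). Egln3 was most like Cotl1, Ehd1 and Slc16a6 (0.92, 0.92 and 0.91), and Ankrd37 like Rrp9, Hcfc2 and Exosc8 (0.84, 0.84 and 0.83). Libraries of a group share its treatment and its cell makeup, so these correlations carry no test.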
